A study of Mus musculus with 4 samples.

Results

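The myogenic bHLH transcription factors Myod1, Myog, Myf5 and Myf6, their E-protein partners Tcf3 (E2A), Tcf4 and Tcf12, the bHLH protein Hes6 and the muscle histone methyltransferase Smyd1 were examined in C2C12 cells, an established mouse myoblast line. Cells were grown in 10% fetal bovine serum to near confluence and then kept for 6 days in low-serum differentiation medium. The treated cells received GDF8 at 20 nM every 24 h, which is recombinant myostatin of the mouse, a secreted TGF-beta family factor that restrains muscle growth, and the control cells received no addition. The labels give the horse serum of that medium as 2% in the growth protocol and as 10% in the source names. Both groups were harvested at day 6, so the earlier days, in which these factors act in sequence, were not sampled. RNA of each of 4 biological replicates per group was hybridised to 4 two-colour arrays, each with 1 GDF8 and 1 untreated RNA. Replicates 1 and 4 carried GDF8 in Cy3, and replicates 2 and 3 carried it in Cy5. The labels do not say how the cultures were kept apart, so the p-values below measure the spread between these samples, which may be technical. The comparison asks which of these regulators differ in RNA level when myostatin is present during differentiation.

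A probe was taken where its gene name in the scanner files was 1 of the 9 genes, which gave 16 of the 41174 non-control probes. The accession of 2 of these, both named Tcf3, belongs to Tcf7l1, the HMG-box factor of Wnt signalling that once carried that symbol and is no bHLH protein. A further 4 probes of the genes stood under older names, of which 2 were named Tcfe2a (Tcf3, E2A) and 2 were named A130037E08Rik (Tcf12). The 9 genes thus had 18 probes in all, and each passed the filter on low values and was tested. The 2 Tcf7l1 probes are given apart.

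Myogenic bHLH factors bind the E-box, CANNTG, as heterodimers with the widely expressed E proteins, and they switch on the genes of the contractile apparatus. Myf5 and Myod1 set myoblasts up for the muscle lineage, Myog drives terminal differentiation, and Myf6 (MRF4) appears late and persists in mature fibres. Id proteins, which lack a basic region, hold E proteins away from DNA. Smads, the intracellular effectors of TGF-beta family receptors, bind the letters CAGAC.

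The stretch just before the start of a gene shows where such letters lie in 3 members whose probes are described below: Myog, a factor that binds E-boxes and whose own gene has them, Hes6 and Smyd1. Each sequence is from RefSeq (GRCm38.p6), runs 5′ to 3′ on the strand of the gene over the 250 bases before its annotated start, and has E-boxes in capitals.

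Myog, chr1:134289754-134290003, plus strand: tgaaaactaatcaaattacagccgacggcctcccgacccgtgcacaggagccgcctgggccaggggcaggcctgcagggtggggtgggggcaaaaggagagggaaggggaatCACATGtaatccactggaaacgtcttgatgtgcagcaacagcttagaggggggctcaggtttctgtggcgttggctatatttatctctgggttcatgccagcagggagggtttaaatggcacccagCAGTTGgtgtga

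Hes6, chr1:91414039-91414288, minus strand: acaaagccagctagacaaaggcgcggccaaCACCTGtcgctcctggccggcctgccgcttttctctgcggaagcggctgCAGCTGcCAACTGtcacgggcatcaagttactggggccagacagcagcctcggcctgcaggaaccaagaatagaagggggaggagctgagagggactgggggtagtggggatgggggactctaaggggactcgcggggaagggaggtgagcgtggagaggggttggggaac

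Smyd1, chr6:71262282-71262531, minus strand: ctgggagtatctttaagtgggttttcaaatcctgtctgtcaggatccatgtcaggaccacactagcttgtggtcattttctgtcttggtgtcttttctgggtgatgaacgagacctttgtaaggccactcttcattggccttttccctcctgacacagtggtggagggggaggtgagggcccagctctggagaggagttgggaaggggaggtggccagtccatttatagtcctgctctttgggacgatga

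The Myog window held 2 E-boxes, CACATG at 138 and CAGTTG at 12 bases before the start. The Hes6 window held 3 E-boxes, at 220, 171 and 164 bases before the start, and the middle one read CAGCTG. The Smyd1 window held 0, which says only that these letters are not in that stretch. A second annotated Hes6 start had 1 E-box, also CAGCTG. Across the 32851 RefSeq windows of this length, 66.2% held at least 1 CANNTG on either strand, 12.2% held 3 or more, and 13.0% held CAGCTG. The Smad letters, CAGAC, searched on both strands and not overlapping an E-box here, stood once in each Hes6 window, in Smyd1 (as GTCTG), in Myf5 and in 1 of 3 Tcf12 windows, and not in Myog or Tcf3, against 42.2% of all windows. RefSeq windows were matched for 6 of the 9 genes, and Myod1, Myf6 and Tcf4 had none in the table used. These matches describe letters and no binding was measured.

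The arrays held 43379 non-control spots each, with 9.2% to 12.1% of them saturated in Cy5 and 0.745% to 5.49% saturated in Cy3. Each of 10 markers of myoblasts and myotubes was well above background in all 8 channels, and 9 of them were saturated in at least 1 channel. Lep and Cfd (fat), Ibsp (bone), Ptprc (blood), Pecam1 (endothelium) and Snap25 (nerve) were well above background in 0 channels. Of the other markers, 3 of 7 for adipocytes, 4 of 5 for smooth muscle, 3 of 6 for bone and cartilage and 1 of 3 each for blood, endothelium and nerve were above it in all 8. With GDF8, 1 marker outside skeletal muscle passed the threshold, Lmod1 of smooth muscle (-0.48, adjusted p = 0.0408 in limma), which was lower as Mef2c, Ckm and Cav3 were. Of the other smooth muscle markers Cnn1 was at 0.56 (adjusted p = 0.0821) and Smtn at -0.20 (adjusted p = 0.538), while Acta2 was saturated on all 4 arrays of both groups and Myh11 was above background in 1 channel of each. Their part in the results below was not tested. In such bulk samples fewer cells of a kind and less RNA per cell cannot be told apart.

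None of the 18 probes passed an adjusted p of 0.05 in limma, 0 higher and 0 lower, where 0.771% of the 26577 probes tested were higher and 1.95% were lower with GDF8. Of the 18, 6 had a saturated channel. Myog and 1 Hes6 probe were saturated in a whole group, so their not passing does not describe their levels. Of the 12 never saturated, 0 passed, beside 701 of 21671 such probes over the array. At an unadjusted p under 0.05 the same fit gave 3 probes, all lower, for Myf6, Smyd1 and Hes6. At that level 12.2% of all probes passed, and 6.69% of all probes were lower. All 3 were among the 12 never saturated probes (25%), beside 14.2% of all such probes. The methods' unpaired t-test was run on the values and probes as normalised and filtered here, not on the authors' GeneSpring values. At p under 0.05 with a fold over 1.6 this t-test gave 0 of 18, and 1.66% of all probes. After adjustment it gave 0 of 18, and 0.38% of all probes. The ratio was below 0 on all 4 arrays for those 3 probes (7.91% of all probes) and above 0 on all 4 for 1 probe, of Tcf3 (7.69% of all probes). The median over the 16 probes not saturated in a whole group was a log2 ratio of 0.03, beside 0.01 over all probes. Ratios are given on the log2 scale as GDF8 divided by untreated, and ± is the standard error of limma over 4 arrays. Signals are spot means minus local background in scanner units, which cannot be set against each other between probes.

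**Figure D1:**
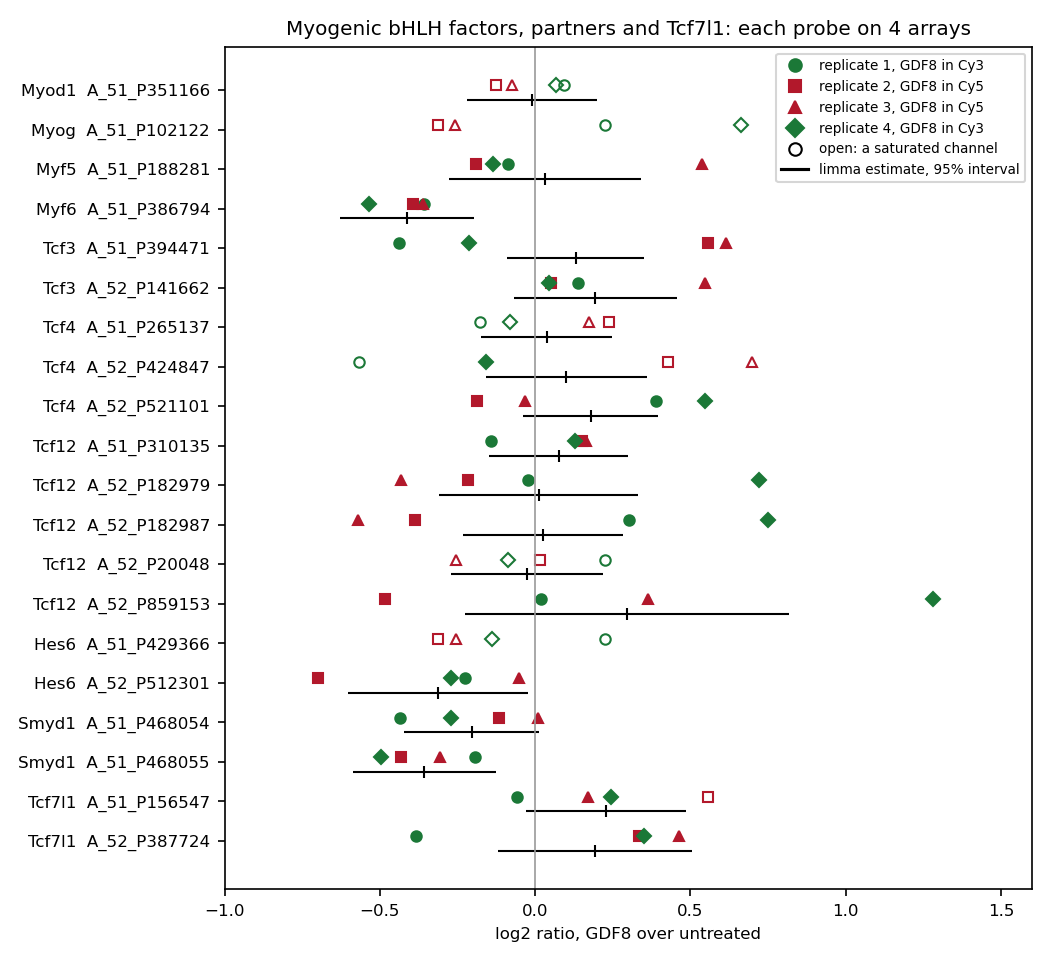
Log2 ratio of GDF8 over untreated (horizontal axis) for each probe of the 9 genes and of Tcf7l1 (vertical axis), 1 point per array, coloured by the dye of GDF8 and open where a channel was saturated. Bars are limma's estimate with its 95% interval, left out where a whole group was saturated; Myf6, 1 Smyd1 and 1 Hes6 probe lie below 0 on all 4 arrays, and several E-protein probes split by colour, that is by dye.

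Of the 4 myogenic regulatory factors, Myf6 had the lowest ratio and was the only one with an unadjusted p under 0.05. Myf5 lay near 0, Myod1 read near 0 with a saturated channel on each array, and Myog could not be measured. Myf6, the factor of late differentiation and mature fibres, gave a signal of 632, 367, 316 and 334 in untreated cells and of 405, 285, 171 and 225 with GDF8, for replicates 1 to 4. GDF8 was the dimmer channel on every array, in both dye orientations, although the normalised levels of the groups overlap across arrays. The log2 ratios were -0.36, -0.39, -0.36 and -0.54. The estimate was -0.41 ± 0.09 (95% interval -0.63 to -0.20), a level 1.33-fold lower, with an unadjusted p of 0.00265 and an adjusted p of 0.0767 in limma. Its rank by p was 919 among all probes tested.

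For Myf6 the call turned with the processing. In the authors' deposited table the same arrays read -0.58, -0.54, -0.69 and -0.67, and limma on that table gave -0.62 ± 0.11 with an adjusted p of 0.0441. The estimate stayed below 0 under each of 17 settings, from -0.62 to -0.13, with adjusted p-values from 0.0441 to 0.978. In this balanced design the filter, dye term, pairing and test change only its error or p-value, so the estimate stayed at -0.41. Such settings do not test its sign, and the Agilent processed signals and the deposited table hold the same values. The smallest estimate came from the Cy3 channel alone, between arrays (-0.13 ± 0.25), a comparison added after the data were seen. There GDF8 read 8.27 and 7.69 and untreated 8.19 and 8.03 on the log2 scale, so that the groups overlapped. Leaving out 1 array at a time gave -0.46 to -0.37, with adjusted p-values of 0.101 to 0.356.

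**Figure D2:**
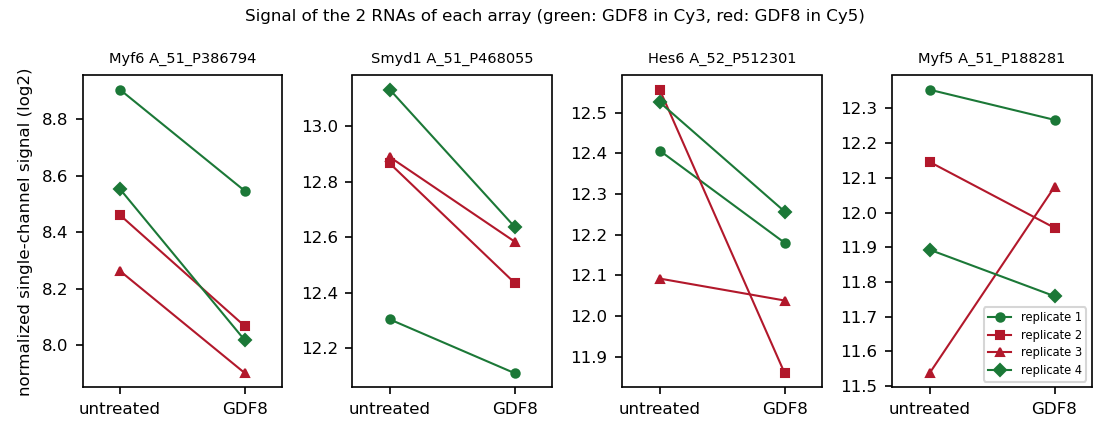
Normalised single-channel signal (log2, vertical axis) of the untreated and the GDF8 RNA of each array for 1 probe each of Myf6, Smyd1, Hes6 and Myf5; lines join the RNAs of an array. All 4 lines fall for Myf6, Smyd1 and Hes6, and for Myf5 the line of replicate 3 rises while the other 3 fall.

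Myod1, which commits cells to the muscle lineage, was close to the scanner's ceiling. Its 1 probe, printed as 10 spots, gave a signal of 65209, 53811, 55758 and 65198 in untreated cells and of 58220, 65203, 65200 and 32271 with GDF8. The Cy5 channel was saturated on every array, whichever RNA it held, and a saturated channel reads no higher than the ceiling. The ratios were 0.09, -0.13, -0.07 and 0.07, positive where GDF8 was in Cy3 and negative where it was in Cy5. The estimate was -0.01 ± 0.09 (95% interval -0.22 to 0.20, limma, adjusted p = 0.985). Since each array had a channel at the ceiling, this interval does not bound the true fold. In the Cy3 channel alone GDF8 read 15.42 and 15.70 and untreated 15.56 and 15.47 on the log2 scale, with 20% of the spots of the first saturated. The groups overlapped, with a difference of 0.04 ± 0.18. Neither value shows equal levels.

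Myog, the factor of terminal differentiation, was saturated in untreated cells on 4 of 4 arrays and in GDF8 on 3 of 4, so no fold is given. Its ratios on replicates 1, 2 and 3, 0.23, -0.31 and -0.26, equal those of any spot with both channels at the ceiling: the median over 2380, 1784 and 2123 such spots was 0.23, -0.31 and -0.26. These 3 ratios thus carry no information on Myog. On replicate 4 alone the GDF8 channel, in Cy3, was below saturation at a signal of 56796, and the untreated channel stood at the ceiling. The ratio of 0.66 there lies under the 0.81 that 323 fully saturated spots of that array had. All 10 spots of that array ran from 0.59 to 0.70.

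Myf5, an early myoblast factor, was never saturated. Its signal was 7991, 3447, 2428 and 4738 in untreated cells and 4403, 7022, 5943 and 1474 with GDF8, values that mostly follow the dye. After normalisation the ratios were -0.09, -0.19, 0.54 and -0.13, so that replicate 3 stood apart above 0 and the other 3 arrays lay below it. The estimate was 0.03 ± 0.13 (limma, adjusted p = 0.968), and -0.15 without replicate 3. The 10 spots of the probe on an array had an SD of 0.02 to 0.04, and those of replicate 3 ran from 0.50 to 0.58. The SD between arrays was 0.34. The spots of Myf5 on 1 array thus agreed far more closely than its arrays did.

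**Figure D3:**
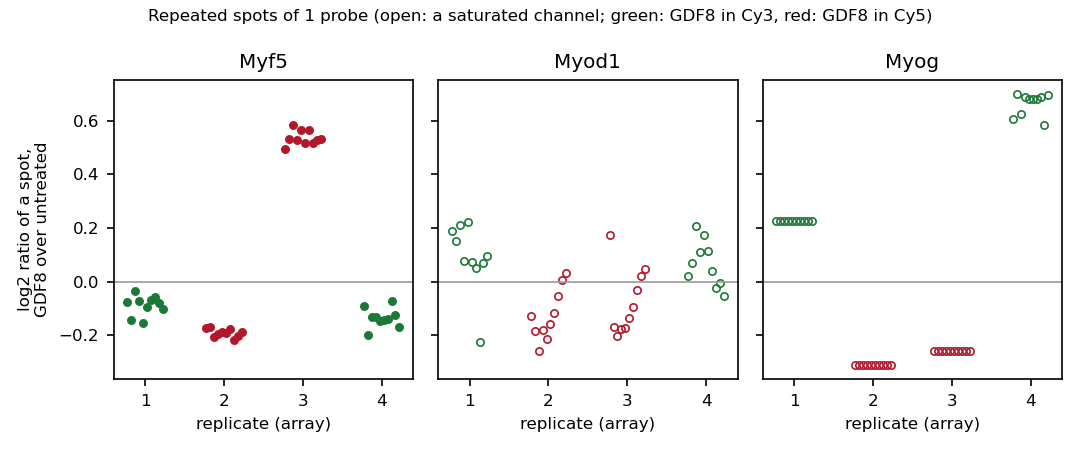
Log2 ratio of each of the 10 spots of 1 probe (vertical axis) on each array (horizontal axis, replicate) for Myf5, Myod1 and Myog, open where a channel was saturated. Myf5 spots of replicate 3 cluster at 0.50 to 0.58, and Myog spots lie on flat lines on the 3 arrays where both channels were saturated.

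The 10 probes of the E proteins, the common dimer partners of these factors, ranged from -0.03 to 0.30 with a median of 0.09. A saturated channel was found in 3 of them. In limma 0 passed the threshold in either direction, and 0 had an unadjusted p under 0.05, beside 12.2% of all probes tested. At that share a count of 0 among 10 probes does not set the E proteins apart. Tcf3, which encodes E12 and E47, had 2 probes under its older name. At the brighter spots (A_51_P394471) the signal was 58538, 23311, 25660 and 44611 in untreated cells and 30904, 60664, 58129 and 13400 with GDF8. The ratios were -0.44, 0.56, 0.62 and -0.21: they took the sign of the dye of GDF8, with a dye effect of 0.46 against a GDF8 estimate of 0.13 ± 0.09 (limma, adjusted p = 0.737). The other Tcf3 probe (A_52_P141662) gave 0.14, 0.05, 0.55 and 0.04, all above 0, with replicate 3 again the highest. Its estimate was 0.19 ± 0.11 (adjusted p = 0.613), and 0.07 was the lowest value when 1 array was left out.

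Tcf4, here the E protein E2-2 and not the Wnt factor of that name, had 3 probes. A_51_P265137 was saturated in Cy5 on all 4 arrays (0.04 ± 0.09) and A_52_P424847 in 3 of 8 channels (0.10 ± 0.11). Neither error bounds the fold. The never saturated one, A_52_P521101, gave 0.39, -0.19, -0.03 and 0.55 and an estimate of 0.18 ± 0.09 (limma, adjusted p = 0.549). Its sign turned with the dye, in the opposite sense to A_52_P424847, at -0.57, 0.43, 0.70 and -0.16. The fitted dye effects of these probes were -0.29 and 0.46, opposite in sign. The 0.46 is of A_52_P424847, which had a channel at the ceiling on replicates 1, 2 and 3, so it is not a dye effect alone.

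Tcf12 (HEB), the third E protein, had 5 probes. A_51_P310135 lay at 0.08 ± 0.10, with -0.14 on replicate 1 and values of 0.13 to 0.16 on the others. A_52_P20048, saturated in 6 of 8 channels and in at least 1 on each array, was at -0.03 ± 0.10, an error that does not bound the fold. A_52_P859153 had the widest spread, at 0.02, -0.48, 0.36 and 1.28. Its estimate of 0.30 ± 0.22 (limma, adjusted p = 0.756) fell to -0.02 without replicate 4. The probes under the older name stood at 0.01 ± 0.14 (A_52_P182979) and 0.02 ± 0.11 (A_52_P182987). The latter gave 0.30, -0.39, -0.57 and 0.75 and again followed the dye. M97635 and AK169800, the accessions behind A_52_P20048 and A_52_P859153, and U16322 behind A_51_P265137, were tied to their genes by symbol alone. A_52_P182979 and A_52_P182987 were tied to Tcf12 only by a synonym, their older name.

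A dye effect larger than the GDF8 estimate was found in 13 of the 18 probes (72.2%), beside 59% of all probes tested, and in 7 of the 12 never saturated (58.3%), beside 52.6% of all such probes. A saturated channel was found in 6 of the 18 (33.3%), beside 18.5%. The fit takes both dye orientations in equal number, so a dye effect that is the same on each array cancels in the estimate. Tcf7l1, the Wnt-pathway repressor found under the name Tcf3, gave 0.23 ± 0.11 (A_51_P156547) and 0.19 ± 0.13 (A_52_P387724), with adjusted p-values in limma of 0.499 and 0.719. These values belong to no E protein.

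Hes6 and Smyd1 act beside the myogenic factors, Hes6 as a bHLH protein that counters Hes1 and promotes differentiation, and Smyd1 as a methyltransferase of striated muscle needed for sarcomere assembly. Of their 4 probes, 1 of Hes6 was too bright for a fold, and the other 3 had estimates from -0.36 to -0.20, none past the threshold. For Smyd1 A_51_P468055 the signal was 7561, 5556, 6134 and 11545 in untreated cells and 3901, 9916, 8813 and 2507 with GDF8. The raw signals follow the dye. The normalised ratios were below 0 on each array, at -0.19, -0.43, -0.30 and -0.50, while the levels of the groups overlap across arrays. The estimate was -0.36 ± 0.10, or 1.28-fold lower (limma, unadjusted p = 0.00828, adjusted p = 0.153). It lay between -0.51 and -0.28 under 15 settings. Those that change only the filter, dye term, pairing or test could not move it.

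The second Smyd1 probe, A_51_P468054, shares the accession of the first. Its signal was 32331, 10718, 9271 and 22316 in untreated cells and 13234, 24576, 17077 and 5323 with GDF8. The ratios were -0.43, -0.12, 0.01 and -0.27, so that replicate 3 lay at 0 and the others below. The estimate was -0.20 ± 0.09 (limma, adjusted p = 0.455), and in the Cy3 channel alone it was 0.17 ± 0.18, above 0. The Smyd1 probes had the same sign on replicates 1, 2 and 4 and opposite signs on replicate 3 and in the Cy3 channel alone.

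Hes6 A_52_P512301 gave a signal of 8100, 4544, 3535 and 7554 in untreated cells and of 4070, 6579, 5833 and 2004 with GDF8. Its ratios of -0.23, -0.70, -0.05 and -0.27 were all below 0, with replicate 2 farthest and replicate 3 close to 0. The estimate was -0.31 ± 0.12, or 1.24-fold lower (limma, unadjusted p = 0.0386, adjusted p = 0.36). With 1 array left out it ranged from -0.47 without replicate 3 to -0.15 without replicate 2. The other Hes6 probe, A_51_P429366, was saturated in untreated cells on 4 of 4 arrays and in GDF8 on 3 of 4, and no fold is given. On replicate 4, where the GDF8 channel read 26564, its ratio was -0.14, beside 0.81 for fully saturated spots of that array. That array held GDF8 in Cy3, and no array of the other orientation measured it.

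**Figure D4:**
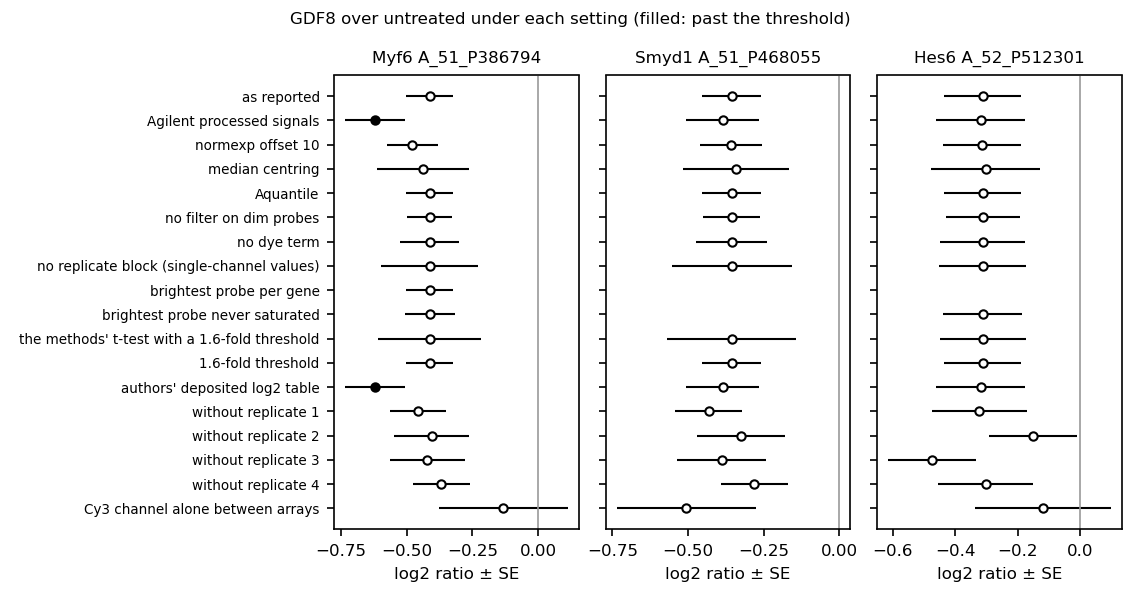
Log2 ratio of GDF8 over untreated with its standard error (horizontal axis) for Myf6, Smyd1 (A_51_P468055) and Hes6 (A_52_P512301) under each processing setting (vertical axis), filled where the adjusted p was under 0.05 and blank where that setting uses another probe. Every estimate drawn for these 3 probes lies below 0, and only Myf6 with the Agilent processed signals and with the authors' deposited table is filled. Settings of filter, dye term, pairing and test leave the estimate as reported and change only its error or p-value.

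Genes that restrain, help or answer these factors were read in 7 lists from the brightest probe of each gene, in the same fit over all probes. Of 82 measured genes 2 were higher and 3 were lower with GDF8, where 0.877% of all genes by brightest probe were higher and 2.32% were lower. Medians below stand beside 0.01 over all genes. Counts below at an unadjusted p under 0.05 in limma stand beside 928 higher and 1257 lower of 17444 genes. Medians and counts include genes saturated in a whole group, which give no fold: 22 of the 82, and 1343 of 17444 over all genes. In single-channel values without pairing by array, Hdac9 kept its call (adjusted p = 0.0244) and Msc (0.128), Mef2c (0.137), Ckm (0.225) and Cav3 (0.441) did not.

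Among inhibitors of myogenic bHLH factors, 1 of 15 measured genes was higher and 0 were lower (median 0.13). The 1 that rose was Msc (MyoR, musculin), a bHLH repressor that competes for E-boxes, with ratios of 0.73, 0.42, 0.59 and 0.50. Its signal was low, from 292 to 509 in untreated cells and from 341 to 688 with GDF8. Its estimate was 0.56 ± 0.10, or 1.48-fold (limma, adjusted p = 0.0324). The size moved with the processing, to 0.63 with a normexp offset of 10 and 0.83 with the Agilent processed signals. Without replicates 1, 2, 3 and 4 in turn the estimate was 0.50, 0.61, 0.52 and 0.62 and the call was lost each time (adjusted p = 0.0854, 0.117, 0.153 and 0.0627). Id4 (-0.47 ± 0.11, adjusted p = 0.0814), Heyl, a Notch effector (0.42 ± 0.09, adjusted p = 0.082), and Bhlhe40 (0.22 ± 0.09, adjusted p = 0.399) did not pass. Bhlhe40 was saturated on 1 array in untreated cells and on 2 with GDF8.

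Among upstream and parallel activators, 0 of 9 were higher and 1 was lower (median 0.04). That was Mef2c, the MADS-box partner of the myogenic factors, at -1.46, -0.84, -0.44 and -1.08, an estimate of -0.95 ± 0.11 or 1.94-fold lower (limma, adjusted p = 0.0124). It kept its call without each array in turn. Tead4 (-0.38 ± 0.09, adjusted p = 0.0924), Six4 (0.27 ± 0.12) and Pax7 (0.19 ± 0.09) did not pass.

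Among corepressors, 1 of 12 was higher and 0 were lower (median 0.07). That was Hdac9, a class IIa deacetylase that binds MEF2, with ratios of 0.76, 0.42, 0.71 and 0.95 and an estimate of 0.71 ± 0.10, or 1.63-fold (limma, adjusted p = 0.0166). A dimmer Hdac9 probe, A_51_P255467, gave 0.06 ± 0.11 (adjusted p = 0.923), so the probes of Hdac9 disagreed. Without replicate 3 the call on the brighter probe was lost at 0.64 (adjusted p = 0.0618), and without replicate 4 at 0.66 (adjusted p = 0.0627). Ezh2 (0.33 ± 0.09, adjusted p = 0.148), Hdac7 (0.27 ± 0.10) and Hdac3 (0.17 ± 0.10) did not pass. Among coactivators 0 of 11 passed in limma and 1 had an unadjusted p under 0.05 (median -0.03), Mamstr, an MEF2 coactivator (-0.41 ± 0.09, adjusted p = 0.0729). Carm1 (0.16 ± 0.10), Kdm6a (-0.13 ± 0.11) and Smarcd3 (-0.07 ± 0.09, saturated on 2 arrays of each group) had larger p-values.

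Among muscle target genes of the myogenic factors, 0 of 20 were higher and 2 were lower (median -0.04), and 12 of the 20 were saturated in a whole group. The counts and the median include those 12 and do not describe their levels. Ckm, the muscle creatine kinase whose enhancer is a classical target of these factors, gave -1.10, -1.41, -0.30 and -0.89, an estimate of -0.93 ± 0.17 or 1.90-fold lower (limma, adjusted p = 0.0438). Ckm did not pass when replicate 1 (-0.87, adjusted p = 0.11), replicate 2 (-0.65, adjusted p = 0.0898) or replicate 4 (-0.98, adjusted p = 0.106) was left out. Cav3, the caveolin of muscle, gave -0.83, -0.12, -0.10 and -1.26 and an estimate of -0.58 ± 0.11 (limma, adjusted p = 0.0401). Its untreated channel was saturated on 2 arrays and its GDF8 signal reached 64613, so this error does not bound the fold. The ratios split by dye, farther below 0 on replicates 1 and 4, with GDF8 in Cy3. The call on Cav3 was lost without replicate 2 (-0.57, adjusted p = 0.173), replicate 3 (-0.58, adjusted p = 0.126) and replicate 4 (-0.47, adjusted p = 0.126), and with no dye term (adjusted p = 0.337). Musk (-0.43 ± 0.12, adjusted p = 0.144) and Chrnd (-0.38 ± 0.11, adjusted p = 0.2), both of the neuromuscular junction, did not pass.

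Among Smyd relatives and myosin chaperones 4 of 9 were saturated in a whole group. Of the 9, 0 passed in limma and 1 had an unadjusted p under 0.05 (median 0.04). That was Unc45b, the muscle myosin chaperone (-0.41 ± 0.10, adjusted p = 0.103), saturated on 2 arrays of each group. Smyd4 (-0.13 ± 0.14), Unc45a (0.12 ± 0.10) and Smyd3 (-0.09 ± 0.11, saturated on 2 arrays of each group) had larger p-values. Of 14 bHLH factors of other lineages, 8 did not pass the filter on low values, and 0 of the 6 measured passed the threshold or an unadjusted p under 0.05 (median -0.01). Neurog1 (-0.12 ± 0.09), Neurog3 (0.10 ± 0.12) and Lyl1 (-0.06 ± 0.09) were among them. For Scx no fold is given, since its untreated RNA was saturated on each array.

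**Figure D5:**
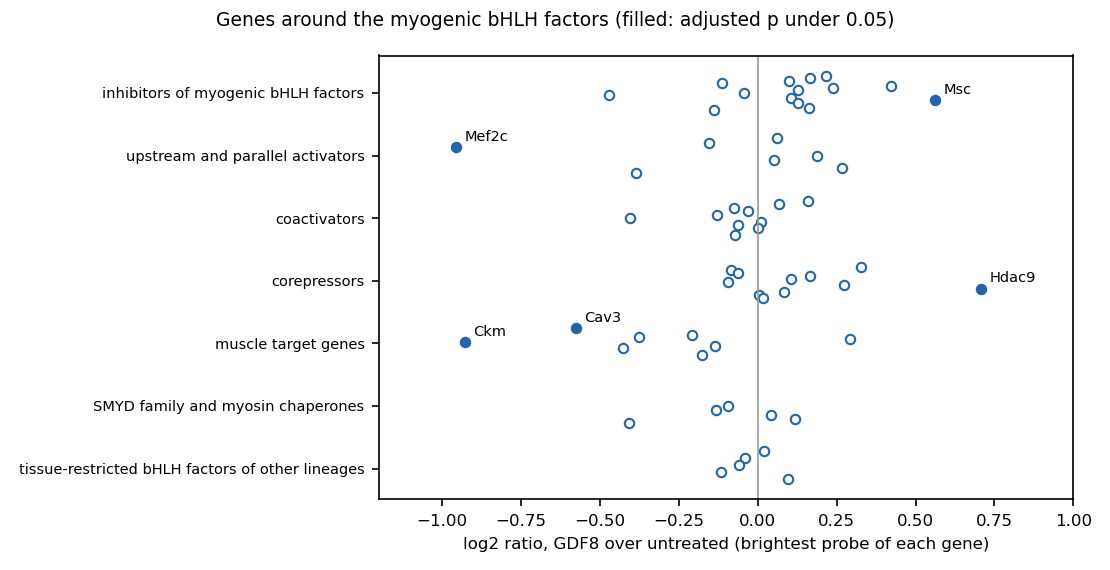
Log2 ratio of GDF8 over untreated (horizontal axis) at the brightest probe of 60 list genes, 1 point each, by list (vertical axis), without the 22 genes saturated in a whole group. Filled points passed an adjusted p of 0.05: Msc and Hdac9 above 0, and Mef2c, Cav3 and Ckm below.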

How the data were processed

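Both channels of 4 Agilent whole-genome mouse arrays were read. The deposited scanner files hold intensity for each spot and its local background, the log10 ratio of red over green, and other columns, which are flags of saturation, outliers and signal above background, per the file headers. They come from Agilent Feature Extraction 9.1.1.1, per the submitters' processing notes and the series' design text. A second table, also deposited by the authors, gives log2 ratios. At a tolerance of 0.001 they equalled the processed signals' log2 ratio of GDF8 over untreated in 100% of 40929 single-spot probes, and column medians of 0.14, -0.09, -0.11 and 0.09 show no centring. The authors exported to GeneSpring GX 12 and used an unpaired test with a fold over 1.6, per the series' design text.

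Mean signals were background-corrected (normexp, offset 50), normalised by loess within arrays with controls at weight 0, stripped of outlier spots and averaged per probe. A probe is called saturated where over 50% of its spots are. Probes well above background on all 4 arrays of a group and with a value on each array were kept (26577; 646 probes lacked a value on an array). Ratios were fitted in limma 3.58.1 (R 4.3.3) with GDF8 and dye terms, each probe on its own, and adjusted by Benjamini-Hochberg at 0.05. An exact two-sided test over 4 arrays cannot give a p under 0.125. Alternatives covered background, normalisation, filter, dye, pairing, saturation, test, the deposited table and each array left out. All arrays lay on 1 slide, so no batch term was possible. The number of arrays limits the precision.

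The members and lists were chosen with earlier results of these data known. Named genes were every member probe and up to 4 genes per list with the smallest p, leaving out those saturated on all arrays of both groups. Names came from RefSeq (GRCm38.p6): 24375 probes by accession, 6301 by symbol and 2426 by synonym, with 8072 keeping the file's name. The fit was tested on simulated ratios. No probe sequence is given.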

Additional observations from a re-analysis of the deposited data

Results flagged for a closer look

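Among the 20 probes searched, 3 had 1 array far from the other 3, a gap that chance gives in about 1 in 20 groups. Myf5 was at 0.54 on replicate 3, Tcf12 (A_51_P310135) at -0.14 on replicate 1, and Tcf7l1 (A_52_P387724) at -0.38 on replicate 1. The cause was not tested.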

How the results depend on the processing

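The count of member probes past the threshold was 0 in both directions, except for 1 lower (Myf6) with the Agilent processed signals and 1 with the authors' deposited table, which hold the same values. The count of list genes that were lower, 3 as reported, was 1 with Agilent processed signals, 1 with the deposited table, 1 with no filter on dim probes (Mef2c each time), 0 with no replicate block (single-channel values) and 1 to 2 when 1 array was left out. With the brightest never saturated probe of each gene the lower genes were Chrng, Ckm and Mef2c. The brightest probe of Chrng was saturated in untreated cells on 4 arrays. With median centring the count was 4, as Unc45b was added. The count that were higher, 2 as reported, was 1 (Hdac9) with no dye term, with no replicate block and with a 1.6-fold threshold, and 0 to 2 with 1 array left out. The 2 without replicate 1 were Hdac9 and Chrne, which is not among the genes reported, and Msc did not pass in any of those 4 fits. In the Cy3 channel alone, chosen after seeing the data, 0 were higher and 0 lower, as over all probes, with 2 arrays a group. That comparison also turned the sign of Myod1 (0.042), Smyd1 A_51_P468054 (0.17) and Tcf12 A_52_P20048 (0.19). Leaving out 1 array turned the sign of Myf5 (-0.15 to 0.21), Myod1 (-0.023 to 0.002), Tcf12 A_52_P182979 (-0.17 to 0.20), A_52_P182987 (-0.087 to 0.14), A_52_P20048 (-0.104 to 0.053) and A_52_P859153 (-0.02 to 0.61), and Tcf4 A_52_P424847 (-0.001 to 0.20). None of these 7 probes passed the threshold under a setting run. Over all probes, 205 were higher and 519 lower, but 30 and 184 without replicate 2, 60 and 211 without replicate 4, 88 and 347 with no dye term, and 64 and 289 without pairing. Where not stated, the cause was not tested. Saturation limits Myod1, Myog, 1 Hes6 probe, Tcf4 A_51_P265137 and A_52_P424847, Tcf12 A_52_P20048 and most muscle target genes.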
